A study of Mus musculus with 6 samples.

Results

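Of the 10 immediate early genes examined here, *Fos*, *Jun*, *Junb*, *Jund*, *Egr1*, *Ier2*, *Btg2* and *Dusp1* (8 genes) have a row among the 12125 genes of the deposited kidney table, and *Fosb* and *Atf3* (2 genes) have none. The genes were chosen by name, as AP-1 subunits and other genes induced within minutes of a stimulus. The libraries came from tamoxifen-treated mice that all carried a Cre recombinase with an ERT2 domain under the *Col1a2* promoter, which is active in fibroblasts, and a Katushka fluorescent protein (KFP) reporter behind a stop cassette that Cre removes. The 3 control libraries were Trf1+/+; Col1a2-CreERT2, and the 3 others were Trf1flox/flox; Col1a2-CreERT2, in which Cre deletes *Trf1* (*Terf1* in the table), the gene of a telomere-binding protein. Male and female mice of 6 to 8 weeks of age at the start were injected 3 times a week over 8 weeks. The sex behind each library is not given in the sources used here. Kidneys were minced, digested with warm collagenase and dispase, stained for CD29 and KFP, and sorted, and 500 cells per sample were lysed for full-length cDNA amplification. Whether cells with both markers or with either were sequenced is not given in the sources used here. Libraries are numbered 1 to 3 within each genotype, and the numbers pair no samples.

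Immediate early genes need no new protein to be switched on. MAP kinases and protein kinase A activate factors already bound at their promoters, such as the serum response factor with its ELK partners and CREB, and the RNAs are made in a burst and decay quickly. FOS and FOSB pair with JUN, JUNB or JUND to form AP-1, and ATF3, a related leucine zipper protein, can also pair with JUN proteins. EGR1 is a zinc finger factor, and DUSP1 and BTG2 damp the response. Enzymatic dissociation of tissue at body temperature is known to induce these genes in kidney and other organs.

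The promoters were searched for the sites of these factors. The 250 bases before the RefSeq start site (GRCm38.p6) could be read for 8 of the 10 genes, *Egr1* and *Ier2* not being among them. The CREB site TGACGTCA, which reads the same on either strand, lay in 2 of these promoters (*Btg2* and *Dusp1*), against 1.55% of all 32851 promoters of that length. Its part TGACGT, searched on both strands, lay in 4 (*Fos*, *Atf3*, *Btg2* and *Dusp1*) against 6.47% of all, and every promoter with the full site also counts here. Neither the AP-1 site TGANTCA (6.75% of all promoters) nor a CArG box, the site of the serum response factor (1.47%), was found in the 8 windows. Bases further upstream, and the promoters of *Egr1* and *Ier2*, were not searched. At such shares, finding none in 8 windows says little. Any match to these sites is a stretch of letters and was not tested as a binding site. The 3 promoters below belong to a gene read in a pair of libraries and to the pair of genes with the full CREB site, and the capitals mark TGACGT in *Fos* and TGACGTCA in the others. That of *Fos* is chr12:85473640-85473889 on the plus strand, that of *Btg2* chr1:134079156-134079405 and that of *Dusp1* chr17:26508473-26508722, both on the minus strand. The marked site begins 66 bases before the start in *Fos*, 166 in *Btg2* and 143 in *Dusp1*. The *Dusp1* window lies inside the span of the gene in the GENCODE annotation (26505590 to 26562128), which extends beyond the RefSeq start.

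Fos: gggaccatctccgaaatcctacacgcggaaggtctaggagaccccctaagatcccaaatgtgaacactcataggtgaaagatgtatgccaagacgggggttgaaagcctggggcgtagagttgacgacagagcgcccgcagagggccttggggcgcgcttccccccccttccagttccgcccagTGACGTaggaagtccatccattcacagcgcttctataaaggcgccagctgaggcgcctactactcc

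Btg2: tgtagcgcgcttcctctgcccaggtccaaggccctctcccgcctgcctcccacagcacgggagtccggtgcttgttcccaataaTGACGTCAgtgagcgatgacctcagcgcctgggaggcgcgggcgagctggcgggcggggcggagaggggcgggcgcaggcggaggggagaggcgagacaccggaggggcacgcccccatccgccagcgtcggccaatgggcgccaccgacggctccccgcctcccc

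Dusp1: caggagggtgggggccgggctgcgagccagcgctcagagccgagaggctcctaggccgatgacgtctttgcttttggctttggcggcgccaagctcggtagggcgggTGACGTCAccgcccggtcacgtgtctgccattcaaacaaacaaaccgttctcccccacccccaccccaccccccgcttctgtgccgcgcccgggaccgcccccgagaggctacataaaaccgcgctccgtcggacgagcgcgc

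The 6 libraries held 10263382 to 12248797 reads on the listed genes. Values are normalized counts, that is, reads divided by 1 size factor per library, and 1 read was worth 0.689 to 1.09. A value of 0 therefore allows up to 3 reads, or 2.07 to 3.28 normalized counts, and this limit covers counting error only, since reads were amplified without molecular identifiers. *Terf1* stood at 1 read in the library labelled Trf1+/+ replicate 1, which is low for that label. The other controls had 253 and 235 normalized counts of it. Trf1flox/flox replicates 1, 2 and 3 had 109.98, 7.65 and 12.4, the first of which is high for a deletion. Trf1+/+ replicate 1 also had the fewest genes above 0 (8967) and a median of 13.4 normalized counts, against 118 to 148 elsewhere. Whether its 1 *Terf1* read reflects the genotype or transcripts missed in that library was not tested. The labels are kept as given. The fibroblast label was not borne out by its markers. Of 8 fibroblast markers only *Col1a2*, at 0 to 1.78 normalized counts, and *Dcn*, at 0 to 97.3, have a row. All 8 proximal tubule markers were listed, with summed values of 12012.5 to 81768 in Trf1+/+ and 17535 to 101078 in Trf1flox/flox libraries, and the 4 markers of the loop of Henle and distal tubule summed to 62471 to 104107 and 47620 to 127055. The 4 collecting duct markers summed to 322 to 5880 and 934 to 18304, and the 5 red blood cell markers, although red cells had been lysed, to 238 to 10472 and 121 to 52403. *Pecam1* alone of 5 endothelial markers (0.859 to 12.02), *Csf1r* and *Lyz2* alone of 7 leukocyte markers (0 to 279.8 and 0 to 377) and neither of 2 podocyte markers had a row. What these mixtures contribute to the values below was not tested, and fewer cells of a type cannot be told apart from less RNA per cell.

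*Fos*, the AP-1 subunit that pairs with JUN proteins (ENSMUSG00000021250, chromosome 12, 85473890 to 85477273 on GRCm38), was a gene of 2 libraries. It had 0.891, 447 and 0 normalized counts in Trf1+/+ replicates 1, 2 and 3, and 0, 0 and 40.7 in Trf1flox/flox replicates 1, 2 and 3. Trf1+/+ replicate 2 held 539 *Fos* reads and 91.5% of the summed value, Trf1flox/flox replicate 3 held nearly all of the rest, and the other 4 libraries held at most 1 read each. With means of 149 ± 258 (SD, n = 3) for the controls and 13.6 ± 23.5 (SD, n = 3) for Trf1flox/flox, each SD exceeded its mean and the groups overlapped. *Fos* did not pass the filter on low values, which asked for 10 or more normalized counts in 3 or more libraries. In a fit of all 12110 genes with any read, its log2 fold change, taken after adding 1 to each value, was -1.45 (standard error 2.62, adjusted p = 0.997 from limma).

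*Egr1*, a zinc finger factor induced by growth factors and stress (ENSMUSG00000038418, chromosome 18, 34859823 to 34864984), was read in the same library as *Fos*. It had 0, 136 and 0 normalized counts in the controls and 0.859, 0 and 0 in Trf1flox/flox libraries. Trf1+/+ replicate 2 thus held 164 reads, 99.4% of the summed value, and the other 5 libraries together held 1 read. *Egr1* also failed the filter, and without a filter its log2 fold change was -2.07 (standard error 1.85, adjusted p = 0.959 from limma). That value depends on the 1 added before taking logs, as a single read stands on the Trf1flox/flox side.

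The Jun genes differed from each other in how widely they were read. *Jun* (ENSMUSG00000052684, chromosome 4, 95049034 to 95052222), the main partner of FOS, had 1093, 67.1 and 46.3 normalized counts in the controls and 128, 0 and 17.9 in Trf1flox/flox libraries. The top value, in the library labelled Trf1+/+ replicate 1, was 8.54 times the next and made up 80.8% of the sum. In that library the upper quartile of all values above 0 was 872, against 363 to 576 elsewhere, so genes read there tend to have higher values. Trf1flox/flox replicate 1 lay above the remaining 2 Trf1+/+ libraries. The log2 fold change was -3.50 (95% interval -8.98 to 1.98, adjusted p = 0.970 from limma). It was -2.08 without Trf1+/+ replicate 1, -1.62 without Trf1flox/flox replicate 2, in which *Jun* had no read, and -0.20 without both.

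*Junb* (ENSMUSG00000052837, chromosome 8, 84974484 to 84978718), a Jun protein with weaker activating power, had 10.7, 0 and 105 normalized counts in the controls and 24.9, 0 and 2.07 in Trf1flox/flox libraries. Each genotype had a library at 0, and Trf1+/+ replicate 3 carried 73.7% of the sum. The log2 fold change was -1.32 (95% interval -5.76 to 3.11, adjusted p = 0.981 from limma), and it was 0.33 without that library.

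*Jund* (ENSMUSG00000071076, chromosome 8, 70698949 to 70700616), known for a steadier level in resting cells, was the member read in all 6 libraries. It had 363, 644 and 116 normalized counts in the controls and 74.8, 400.0 and 133 in Trf1flox/flox libraries. The means of 374 ± 264 (SD, n = 3) and 203 ± 173 (SD, n = 3) differed by less than either SD, and the log2 fold change was -0.92 (95% interval -3.40 to 1.57, adjusted p = 0.970 from limma). Over 877 of its 1668 exonic bases *Jund* is overlapped by the antisense gene *Gm11175*, which has no row. Smaller stretches are shared between *Jun* and the antisense gene *Junos* (232 bases), *Junb* and *Prdx2* (173) and *Dusp1* and *Ergic1* (11). The libraries carry no strand and the strand setting of the counting is not given in the sources used here, so reads from these stretches cannot be told apart or may have been dropped.

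**Figure D1:**
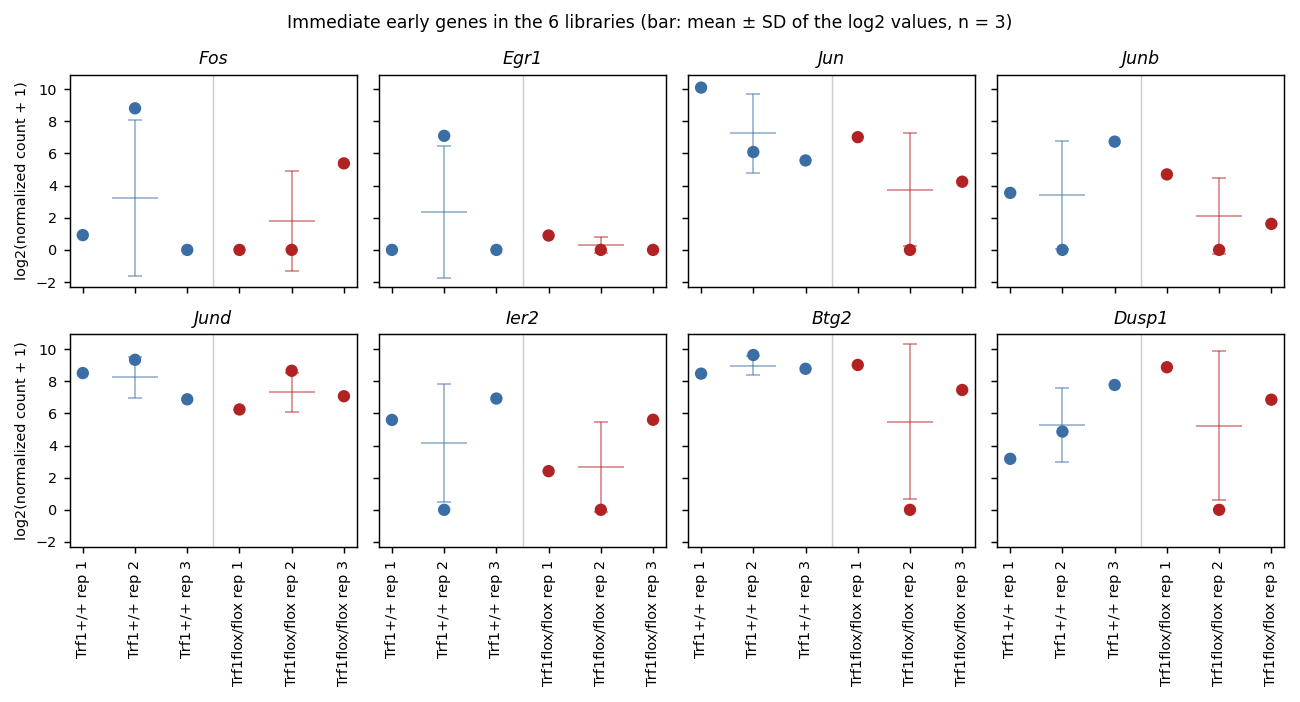
Normalized counts of the 8 listed genes on the vertical axis, as log2 after adding 1, for the 3 Trf1+/+ libraries (blue) and the 3 Trf1flox/flox libraries (red), with bars for the mean ± SD of the log2 values in each group. Each panel has overlapping groups, and Trf1flox/flox replicate 2 lies at 0 in 7 of the 8 panels, all but that of *Jund*.

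The makeup of the Jun family changed from library to library within a genotype. *Jund* made up 24.7% of the *Jun*, *Junb* and *Jund* reads in the library labelled Trf1+/+ replicate 1 (95% Wilson interval 22.7% to 26.9%), 90.6% in replicate 2 (88.4% to 92.3%) and 43.4% in replicate 3 (37.6% to 49.3%). In Trf1flox/flox libraries its shares were 32.8% in replicate 1 (27.5% to 38.7%), all 366 reads in replicate 2 (99.0% to 100%) and 86.9% in replicate 3 (81.9% to 90.7%). Within each genotype the shares thus lay further apart than their intervals, which cover counting error only, and libraries with *Jun* ahead and with *Jund* ahead occurred in both genotypes. *Junb* ranged from none of 858 reads in Trf1+/+ replicate 2 (Wilson interval up to 0.446%) and none of 366 in Trf1flox/flox replicate 2 (up to 1.04%) to 39.3% in Trf1+/+ replicate 3.

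**Figure D2:**
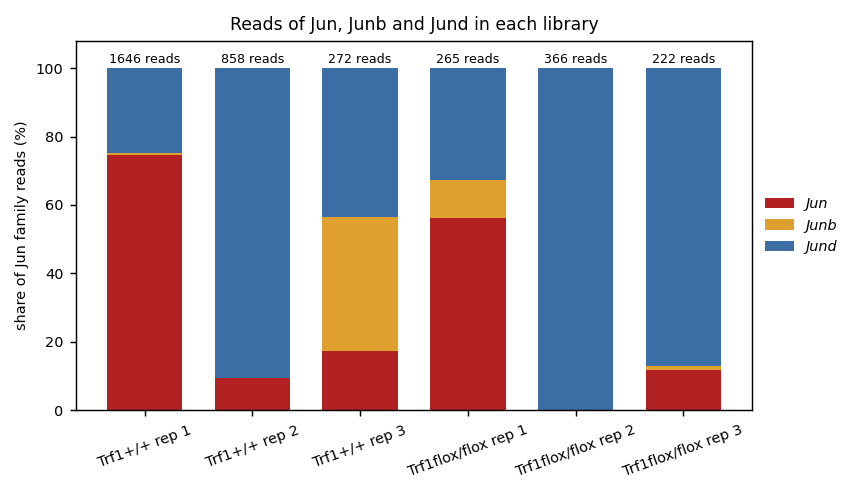
Share of the reads of *Jun*, *Junb* and *Jund* in each library, in percent, with the number of reads above each bar. *Jun* leads in the libraries labelled Trf1+/+ replicate 1 (74.5%) and Trf1flox/flox replicate 1 (56.2%), *Jund* in the other 4.

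*Ier2*, which encodes a nuclear protein of the early response (ENSMUSG00000053560, chromosome 8, 84661331 to 84662852), was read at 47.2, 0 and 120.2 normalized counts in the controls and 4.30, 0 and 47.5 in Trf1flox/flox libraries. A library of each genotype was at 0, and one of each lay between 47.2 and 47.5. The log2 fold change was -1.50 (95% interval -6.66 to 3.66, adjusted p = 0.982 from limma), and -0.17 without Trf1flox/flox replicate 2.

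*Btg2*, an antiproliferative p53 target that recruits the CCR4-NOT deadenylase to mRNA (ENSMUSG00000020423, chromosome 1, 134075170 to 134079120), was the most evenly read member in the controls. It was read at 354, 791 and 437 normalized counts there and at 516, 0 and 174 in Trf1flox/flox libraries. The control mean was 527 ± 232 (SD, n = 3) normalized counts, with an SD of 0.60 on the log2 scale, the lowest of the 8 genes in Trf1+/+ libraries. In Trf1flox/flox libraries the mean was 230.0 ± 262 (SD, n = 3), with replicate 1 above 2 of the controls, replicate 3 below them all and replicate 2 at 0. The log2 fold change was -3.47 (95% interval -7.89 to 0.96, adjusted p = 0.970 from limma) and -0.72 without replicate 2, so a single library made most of the difference.

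*Dusp1*, the phosphatase that switches off p38, JNK and ERK kinases (ENSMUSG00000024190, chromosome 17, 26505590 to 26562128), was the member whose top value was in a Trf1flox/flox library. It had 8.02, 28.2 and 217 normalized counts in the controls and 467, 0 and 114 in Trf1flox/flox libraries. The groups overlapped, with Trf1flox/flox libraries both above and below all controls. The log2 fold change was -0.03 (95% interval -6.02 to 5.96, adjusted p = 0.999 from limma), and it was 2.59 without Trf1flox/flox replicate 2 and 1.22 without Trf1+/+ replicate 3, so its direction rested on single libraries.

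Of the 9966 genes tested, 5571 had a log2 fold change above 0 and 4395 below 0. Over the 6 members that passed the filter, 6 of 6 log2 fold changes were below 0, with a median of -1.41 against 0.20 over all tested genes. None of the 6 was called at an adjusted p under 0.05, as was none of all tested genes (0%), where 312 genes had an unadjusted p under 0.05 in limma, edgeR placed 0 genes under an adjusted p of 0.05 and DESeq2 placed 58. No member had an unadjusted p under 0.05 in limma. The groups overlapped for 6 of 6 tested members, while they did not overlap for 8.68% of all tested genes. Permuting the library labels exhaustively (exact permutation test, two-sided) gave p = 0.3 for *Jun* and *Btg2* and p values of 0.5 to 1 for the other listed members, where 0.1 is the smallest value that 3 libraries against 3 allow. The intervals reach from a fall of 3.40 log2 units or more to a rise of 0.96 or more for each tested member, so that the data leave wide room on both sides of 0. Upper quartile scaling moved the median of all tested genes to 0.44 and edgeR to -0.04. At the scaling used, relative to 0.20, the tested members lay at -0.22 (*Dusp1*) to -3.69 (*Jun*). The log2 fold change of *Dusp1* itself was above 0 with upper quartile scaling (0.28) and with edgeR (1.18). Relative to the median of all tested genes in the same setting, *Dusp1* lay at -0.16 and 1.22.

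**Figure D3:**
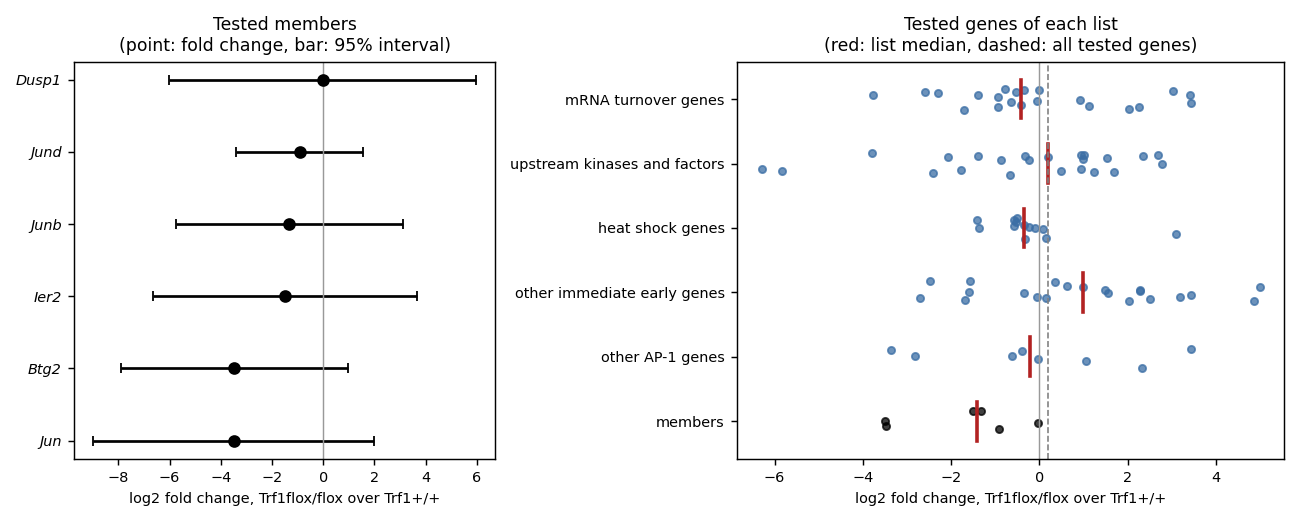
Left, log2 fold changes of the 6 tested members (points) with 95% intervals from limma (bars), each of which crosses 0. Right, log2 fold changes of the tested genes of each list (points), with the list median in red and the median of all tested genes, 0.20, as a dashed line.

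Trf1flox/flox replicate 2 stood apart in the members. In it, 7 of the 8 listed members had no read, although 19.7% of all listed genes were at 0 there. In the other 5 libraries 1 or 2 members were at 0, and the share of all listed genes at 0 was 4.39% to 26.05%, the top of that range in Trf1+/+ replicate 1. The members summed to 366 reads in Trf1flox/flox replicate 2, all from *Jund*, against 769 and 1414 in the other Trf1flox/flox libraries and 1057 to 2550 in the controls. Its total of 11285532 reads was within the range of the others, and of the 26 other immediate early genes listed, 7 were at 0 in it and 9 in Trf1+/+ replicate 1. The summed value of those 26 genes, 10023 normalized counts, was the highest of the 6 libraries there. A few genes made up much of that sum, among them *Id2* (3049), *Gadd45g* (1365) and *Klf6* (1290). What set the members' values in this library was not tested. Without Trf1flox/flox replicate 2, 5 of the 6 tested members stayed below 0 with a median of -0.50, and without Trf1+/+ replicate 1 as well, 4 of 6 with a median of -0.21. The median was -1.17 without Trf1+/+ replicate 1 alone, -3.08 without Trf1+/+ replicate 2, -0.86 without Trf1+/+ replicate 3, -2.23 without Trf1flox/flox replicate 1 and -2.02 without Trf1flox/flox replicate 3.

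**Figure D4:**
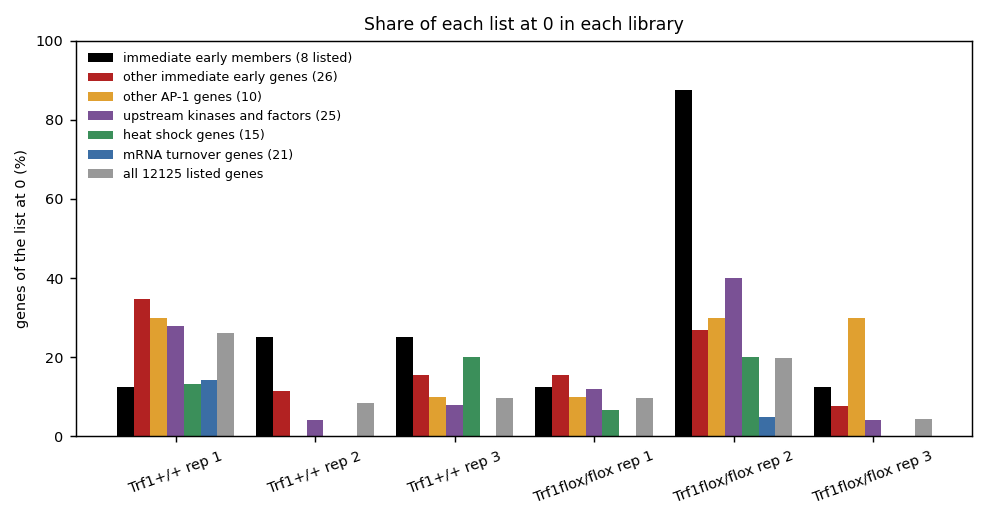
Percentage of the listed genes of each list that are at 0, for each library. The members (black) are at 0 for 7 of 8 genes in Trf1flox/flox replicate 2 and for 1 or 2 of 8 elsewhere, and all listed genes (grey) at 4.39% to 26.05%.

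As a group, the tested members were more uneven than all tested genes, which were not matched to them by level. A library at 0 was found for 5 of the 6 tested members, all but *Jund*, and for 32.02% of all tested genes. All 5 were at 0 in Trf1flox/flox replicate 2, and *Jun*, *Btg2* and *Dusp1* in no other library, so this count largely restates that library. The highest library held a median of 55.4% of the summed value against 38.2%, though *Jund* (37.2%) and *Btg2* (34.8%) lay under the latter. The median SD within a group was 2.64 log2 units for tested members and 1.50 for all tested genes. Per kilobase of exon, the order in Trf1+/+ libraries was led by *Jund* (224 ± 158, SD, n = 3), *Btg2* (192 ± 84.8) and *Jun* (126 ± 188), followed by *Fos* (63.4 ± 109.5), *Ier2* (36.7 ± 39.8), *Dusp1* (25.5 ± 34.8), *Junb* (16.8 ± 25.2) and *Egr1* (10.1 ± 17.5). Neighbours in this order did not differ beyond their SD. In Trf1flox/flox libraries *Jund* (121 ± 104) again led, with *Btg2* (83.8 ± 95.6), *Dusp1* (58.5 ± 73.4) and *Jun* (15.3 ± 21.7) next and the same overlap of neighbours. Exons of all transcripts were merged for this. For *Dusp1* that gave 3311 bases, where its principal transcript has 1990, so its place in either order depends on that choice.

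Transcript features of the members are given here as counts without a test. *Jun*, *Junb* and *Jund* are 1 family, so their shared features are not separate observations. In the GENCODE vM21 annotation, *Jun*, *Junb*, *Jund* and *Ier2* (4 of 8) have a principal transcript of a single exon, against 2.24% of the 10660 listed coding genes. For such genes a read from RNA and a read from genomic DNA look alike. Over the 8 members the median transcript length was 2049 bases against 2882, and the median GC content 56.4% against 50.0%, with *Jund* the highest at 67.1%. The pentamer ATTTA, the core of AU-rich elements that mark mRNA for decay, occurred after the stop codon in 7 of 8 members, all but *Ier2*, and in 66.6% of the coding genes with such a region. At least 3 copies were found in 4 of 8 members and in 35.3% of the coding genes with such a region. The median density was 2.76 per kilobase in the members, with *Dusp1* at 5.80, and 1.29 over the coding genes.

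The pathway around the members was followed in lists written from general knowledge, and no list had a gene with an adjusted p under 0.05 in limma. Of 15 other AP-1 genes, 8 were tested, 3 higher and 5 lower in Trf1flox/flox libraries, with a median log2 fold change of -0.22. The median was above 0 with upper quartile scaling (0.058, where the median of all tested genes was 0.44). It was also above 0 without Trf1flox/flox replicate 1 (0.029) and without Trf1flox/flox replicate 3 (0.085). Among the other AP-1 genes, the smallest unadjusted p belonged to *Fosl2*, *Atf4* and *Mafg* on the higher side and, on the lower, *Mafk* and *Maf* among others. *Fosl2*, the Fos relative FRA2, had 0, 1.66 and 11.8 normalized counts in the controls and 216, 195 and 0 in Trf1flox/flox libraries, and so was read in Trf1flox/flox replicate 2, where *Fos* had no read. *Mafk*, a small Maf protein, had 76.6, 0.829 and 172 against 0.859, 0 and 11.0. Both had groups that overlapped.

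Of 45 other immediate early genes, 19 have no row, among them *Myc*, *Nr4a1*, *Klf2*, *Klf4* and *Socs3*, named here after the table was seen. Of the 21 tested, 14 were higher and 7 lower, where of all 9966 tested genes 5571 were higher and 4395 lower. The median log2 fold change of the 21 was 0.99. That median was 0.34 without Trf1+/+ replicate 1 or with edgeR, 0.33 with DESeq2, 0.40 without both Trf1+/+ replicate 1 and Trf1flox/flox replicate 2, and 1.48 at most with a library left out. The groups did not overlap for 4 of the 21, against 8.68% of all tested genes. The smallest unadjusted p values belonged to *Sgk1*, *Mcl1* and *Klf6* on the higher side and *Gadd45a*, *Id3* and *Dusp6* on the lower. *Sgk1*, a kinase that raises tubular sodium transport, had 2.67, 0.829 and 61.1 normalized counts in the controls and 140.1, 711 and 131 in Trf1flox/flox libraries, with a log2 fold change of 4.99 (SE 2.32, adjusted p = 0.970 from limma). The groups of *Sgk1* did not overlap, nor did those of *Mcl1*, which encodes an antiapoptotic protein, with 258, 11.6 and 19.7 against 304, 519 and 318. *Gadd45a*, a growth arrest gene, lay the other way, with 679, 344 and 303 against 147, 72.1 and 251.

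Heat shock genes encode chaperones that are also induced by stress during dissociation. Of 13 tested, 3 were higher and 10 lower, with a median of -0.36 that was 0.11 without Trf1+/+ replicate 1. *Dnajb1*, *Hspe1* and *Hsp90ab1* were named on the higher side, and *Dnajb4* and *Dnaja1* on the lower. *Dnajb1*, a heat shock co-chaperone, had 11.6, 267 and 172 normalized counts in the controls and 670.2, 947 and 572 in Trf1flox/flox libraries, with a log2 fold change of 3.10 (SE 1.23, adjusted p = 0.970 from limma).

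Upstream of the members, *Srf*, the gene of the serum response factor, was at 0 in 5 libraries and at 11.0 normalized counts in Trf1flox/flox replicate 3. Of 23 tested kinases and factors, 12 were higher and 11 lower, and the median was 0.20, as was, to this rounding, that of all tested genes. It was -0.62 without Trf1+/+ replicate 1, -0.44 without Trf1flox/flox replicate 1 and -0.11 without Trf1flox/flox replicate 3. *Map2k1*, *Map2k4* and *Map2k2* were named on the higher side, and *Rps6ka3* and *Mapk9* on the lower, both of these last with groups that did not overlap. *Rps6ka3*, the ERK-activated kinase RSK2, had 812, 339.7 and 226 normalized counts in the controls and 15.5, 24.0 and 57.2 in Trf1flox/flox libraries, with a log2 fold change of -3.78 (SE 1.51, adjusted p = 0.970 from limma). *Mapk9*, which encodes the JUN kinase JNK2, had 1185, 178 and 330.1 against 0, 0 and 148.

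Among 21 genes of mRNA turnover, all tested, 7 were higher and 14 lower with a median of -0.42. *Tob2*, *Cnot7* and *Cnot9* were named on the higher side and *Cnot10*, *Btg1* and *Btg3* on the lower. *Tob2*, a relative of BTG2, had 4.45, 92.0 and 45.3 normalized counts in the controls and 262, 668 and 156 in Trf1flox/flox libraries, groups that did not overlap. *Btg1*, the paralog of *Btg2*, had 1031, 906 and 726 against 782, 681 and 247, and was read in Trf1flox/flox replicate 2, unlike *Btg2*.

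The genes most like the tested members were found by the root mean square difference between centred log2 values over the 6 libraries, a description of 9960 genes in which 1 low library weighs most. They were *Picalm* (0.29), *Kdm2a* (0.44), *Inpp5k* (0.44), *D11Wsu47e* (0.46) and *Arhgap32* (0.49), where the median gene stood at 2.51. All 5 had their lowest value in Trf1flox/flox replicate 2, as *Picalm* with 647, 234 and 727 normalized counts in the controls and 672, 16.4 and 453 in Trf1flox/flox libraries.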

How the data were processed

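RNA of sorted kidney cells was sequenced in 3 Trf1+/+ and 3 Trf1flox/flox libraries. The authors aligned reads with TopHat 2.0.10 and counted them on genes with HTSeq 0.6.1. Their methods name GRCm38 and GENCODE, and the submitters' processing notes list GRCm39 and DESeq2. The authors deposited a normalized signal, counts per gene divided by 1 size factor per library, and all values (100%) were whole multiples of 1 read within 0.1 read, so reads could be recovered. Reads per library were 10263382 to 12248797. Genes that reached 10 normalized counts in 3 or more libraries (9966) were tested on log2(value + 1) with limma 3.58.1 (trended prior, Benjamini-Hochberg adjustment over all tested genes). The fits were first run on simulated data with a small spread between libraries. How they perform on data as variable as these was not tested. Alternatives were upper quartile scaling, a pseudocount of 10, no filter, edgeR 4.0.16 and DESeq2 1.42.0 on recovered reads, and each library left out. Leaving out 2 libraries together was chosen after seeing the data. The members and lists were chosen with earlier results of these data known. All members are named. From each list the 3 genes with the smallest unadjusted p in each direction are named, except some that are not reported here, and the 5 tested genes with the pattern most like the members'. The table gives no coordinates, so positions came from GENCODE vM21 (GRCm38) by symbol, which matched 98.2% of listed genes and 8 of 8 members. Promoters are from RefSeq. The study describes its groups as 3 mice each. The labels name no mouse for a library, and p-values measure the spread between these libraries.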

Additional observations from a re-analysis of the deposited data

How the results depend on the processing

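No paired analysis was possible because the labels number no replicates. DESeq2 placed 58 genes under an adjusted p of 0.05 and every other setting 0, and no member was called under any setting, DESeq2 giving no p for *Jun*. *Jun*, *Jund* and *Btg2* kept their direction under all settings run (3 of 6 tested members). *Dusp1* was above 0 with upper quartile scaling (0.28), a pseudocount of 10 (0.64), edgeR (1.18) and DESeq2 (1.20). It was 1.54 with both Trf1+/+ replicate 1 and Trf1flox/flox replicate 2 left out, a pair chosen after the values were seen. *Ier2* was 0.54 with both left out. With 1 library left out in turn, log2 fold changes ranged from -1.84 to 2.59 for *Dusp1*, -3.04 to 0.33 for *Junb*, -5.13 to -1.62 for *Jun*, -5.23 to -0.72 for *Btg2*, -3.59 to -0.13 for *Ier2* and -1.60 to -0.37 for *Jund*. Without Trf1flox/flox replicate 1, *Btg2* reached an unadjusted p under 0.05 but an adjusted p of 0.999 in limma.

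In every setting run, the median stayed above 0 for other immediate early genes and below 0 for mRNA turnover genes. List medians of other AP-1, heat shock and upstream genes fell on both sides of 0. Left out in turn, libraries took that of other AP-1 genes from -0.58 to 0.085, of other immediate early genes from 0.34 to 1.48, of heat shock genes from -0.57 to 0.11, of upstream genes from -0.62 to 0.69 and of mRNA turnover genes from -0.68 to -0.035. Upper quartile scaling gave 0.058 for other AP-1 genes and -0.14 for mRNA turnover genes. The same scaling moved the median of all tested genes from 0.20 to 0.44. Other immediate early genes were at 0.34 with edgeR, 0.33 with DESeq2 and 0.40 with both libraries left out, which gave heat shock genes 0.080 and mRNA turnover genes -0.088. The cause of these shifts was not tested.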

Other observations

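Of the 15 heat shock genes listed, *Hspa1a*, *Hspa1b*, *Hspb1* and *Hsp90aa1* had their highest value in Trf1+/+ replicate 2, where *Fos* and *Egr1* were highest. They were picked after the values were seen, and the pattern was not tested. The early genes were not alike in that library. Of the 8 listed members, 4 were highest there and 2, *Junb* and *Ier2*, had no read, as had 3 of the 26 other immediate early genes. *Hspa1a*, the inducible HSP70 gene, had 0.891, 503.8 and 37.4 normalized counts in the controls and 118, 0 and 105 in Trf1flox/flox libraries. Its near-identical neighbour *Hspa1b*, given as uncertain because the sequences are so alike, had 0, 130.1 and 0 and 13.7, 0 and 7.58. *Hspb1*, a small heat shock protein gene, had 0, 120.1 and 0 and 0, 0 and 63.4. These 3 were at 0 in Trf1flox/flox replicate 2. *Hsp90aa1* was read in all 6 libraries, with 2717, 3018 and 1915 in the controls and 1590, 2041 and 2893 in Trf1flox/flox libraries. Its top value was thus close to the 2893 of Trf1flox/flox replicate 3. Other inducible genes of the list were highest elsewhere. *Dnajb1* had 947 in Trf1flox/flox replicate 2 and 267 in Trf1+/+ replicate 2. *Hsph1* and *Bag3* were highest in Trf1+/+ replicate 1, at 2078 and 844, against 1283 and 439 in Trf1+/+ replicate 2. The constitutive *Hspa8* had 13222, 6290.5 and 4615 and 3765, 5611 and 9341, so that it was read in all 6 libraries and highest in another one, Trf1+/+ replicate 1.

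*Ier3*, an early gene outside the member list, had 246, 488 and 840 normalized counts in the controls and 342, 482 and 540 in Trf1flox/flox libraries. *Zfp36*, whose protein binds AU-rich elements, had 0.891, 216 and 34.5 and 186, 5.46 and 78.6. *Ier3* was above 0 in all 6 libraries, Trf1flox/flox replicate 2 included, and both genes had groups that overlapped.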
